A study of Mus musculus with 6 samples.

Results

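The expression of 50 genes of the G2 phase and mitosis (G2/M genes) was followed in single cells of mouse melanoma tumors. The genes were taken by symbol from a list of cell cycle genes, and each symbol matched 1 of the 25215 genes with deposited values. The tumors came from 6 C57BL/6 mice in 3 conditions: B16-F10 melanoma cells without treatment (B16), the same cells with anti-PD1 treatment (B16PD1), and R499 cells without treatment (R499), with 2 tumors in each. R499 is a line derived from a B16 tumor that relapsed after radiation and anti-CTLA4, so it shares its parental line with the other conditions and stands for 1 relapse. In every mouse 50000 cells were injected under the skin on day 0 and the tumors were harvested on day 15, and 3 doses of 200 μg of anti-PD1 (days 5, 8, and 11) were given to the B16PD1 mice. Mice were injected on both flanks, and whether the cells of a tumor came from 1 flank or both is not given in the sources used here. CD45-negative cells were sorted and sequenced with Smart-seq, and values are TPM, a transcript abundance that is scaled by transcript length.

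At the G2/M border, the kinase CDK1 becomes active with its cyclin B partners and starts mitosis. Chromosomes are then condensed, attached through kinetochores to the microtubules of the spindle, and held back by the spindle checkpoint until the anaphase-promoting complex marks its targets with ubiquitin. Many genes of this program are transcribed late in the cell cycle through promoter elements called CHR (cell cycle genes homology region), which is read by the DREAM and MuvB complexes, and through CCAAT boxes, which are bound by NF-Y.

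Promoter windows from RefSeq on GRCm38.p6 were searched for matches to these elements. Each window held 250 bases before and 50 after a gene's start, and the CHR core TTTGAA and CCAAT were sought on both strands. The motifs can overlap by at most 1 base. Of the 50 genes, 44 had an entry, with 48 windows, and Aurkb, Cdc25c, Cdca2, Dlgap5, Smc4, and Tpx2 had none. The sequences below are the 3 most abundant genes that held both motifs before every annotated start, and Ccnb2, which was added after its values were seen because it is in 4 of the 5 strongest pairs described later. Bases are printed 5′ to 3′ on the strand of the gene up to its first annotated start, with both motifs in capitals (TTCAAA and ATTGG are the same motifs on the opposite strand).
Tubb4b, chr2:25224703-25224952, minus strand: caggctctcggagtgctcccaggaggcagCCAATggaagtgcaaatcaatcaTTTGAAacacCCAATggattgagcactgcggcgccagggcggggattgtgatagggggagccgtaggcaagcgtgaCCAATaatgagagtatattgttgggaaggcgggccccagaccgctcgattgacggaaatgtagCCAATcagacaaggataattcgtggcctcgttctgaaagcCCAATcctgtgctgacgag
Anp32e, chr3:95929007-95929245, plus strand: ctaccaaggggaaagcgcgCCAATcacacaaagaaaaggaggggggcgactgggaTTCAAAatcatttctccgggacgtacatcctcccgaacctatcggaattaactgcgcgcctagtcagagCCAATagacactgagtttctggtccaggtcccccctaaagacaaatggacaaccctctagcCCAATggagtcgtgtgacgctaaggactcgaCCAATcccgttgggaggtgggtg
Cdk1, chr10:69352939-69353162, minus strand: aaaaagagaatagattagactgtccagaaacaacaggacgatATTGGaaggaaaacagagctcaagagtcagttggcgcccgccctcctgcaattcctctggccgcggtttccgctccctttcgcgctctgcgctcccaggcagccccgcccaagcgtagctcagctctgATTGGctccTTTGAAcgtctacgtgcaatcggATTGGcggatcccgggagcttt
Ccnb2, chr9:70421555-70421804, minus strand: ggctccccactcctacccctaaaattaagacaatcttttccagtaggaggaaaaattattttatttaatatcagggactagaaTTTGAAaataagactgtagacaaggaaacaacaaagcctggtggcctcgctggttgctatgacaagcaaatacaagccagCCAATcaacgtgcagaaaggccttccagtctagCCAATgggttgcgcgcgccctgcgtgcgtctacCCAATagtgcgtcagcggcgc

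Each of these 4 printed stretches held 1 CHR core, and the windows of Cdk1 and Ccnb2 each held another outside the printed stretch. Counted from the RefSeq start, these unprinted cores began at base -15 in Cdk1 and base 5 in Ccnb2. They lay downstream of every CCAAT box in their windows, and the printed cores began at -71 and -167. The number of CCAAT boxes was 5 for Tubb4b, 4 for Anp32e, and 3 each for Cdk1 and Ccnb2. In Cdk1 the printed core lay between ATTGG boxes on either side, and in Ccnb2 the printed core lay upstream of all 3 boxes. Over the 48 windows of G2/M genes, 68.8% held the CHR core, compared with 17.9% of all 32851 promoters in the table and 11.9% of the 11207 promoters of genes tested below. CCAAT was found in 77.1% of windows of G2/M genes, compared with 37.4% of all promoters and 38.2% of those of genes tested. Both motifs were found in 56.3%, from 26 genes, compared with 6.95% and 4.86%. The window of Cks1b also held both, but its CHR cores lay downstream of the first start that GENCODE annotates, and its sequence is not printed. In the 34 promoters of S phase genes, CCAAT was present in 67.6% and the CHR core in 17.6%. In the 69 promoters of other mitosis genes, a list of 75 genes described later, the percentages were 66.7% and 50.7%. A match is a run of letters and not a site shown to be used, and no test was run on these counts.

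**Figure D1:**
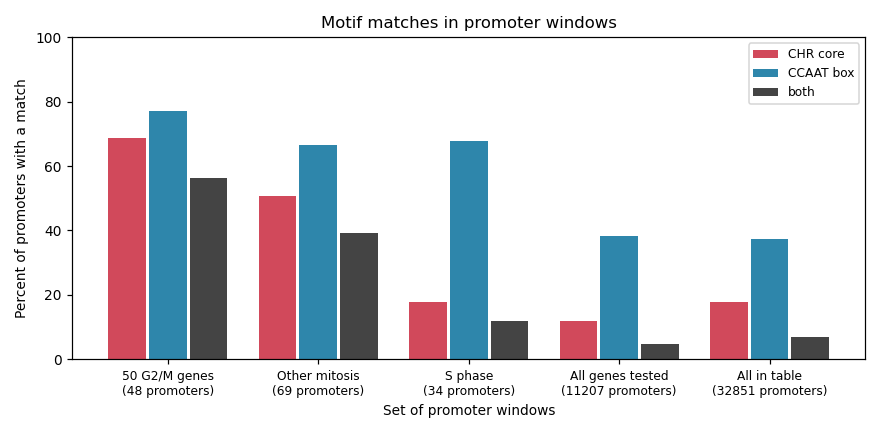
Percent of promoter windows (y axis) with the CHR core, a CCAAT box, or both, in 5 sets of promoters (x axis, with the number of windows). The bars for the CHR core stand at 68.8% in the G2/M genes, 50.7% in other mitosis genes, and 17.6% in S phase genes.

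The deposited values covered 602 cells, and no well name was shared between tumors. Of these, 507 cells with more than 1000 genes detected (TPM above 0) and less than 10% mitochondrial TPM were retained, between 75 and 91 in a tumor. TPM holds no read counts, so depth in reads is unknown, and the number of genes detected in a retained cell had tumor medians from 3141 in R499015 to 3839 in B16PD1002. The labelled cell type was checked against its markers. All 8 melanocyte markers were detected, with Dct, Tyrp1, and Pmel in every retained cell. Of 16 immune markers, 12 were detected and the most frequent, Fcer1g, was in 5.52% of cells, with Cd3d, Cd8a, and Nkg7 among those at 0. Of the fibroblast markers the most frequent were Acta2 and Pdgfrb, each in 1.58% of cells, with Col1a1 and Pdgfra at 0, of the endothelial markers it was Vwf, in 2.56%, with Cdh5, Kdr, and Tek at 0, and the 6 keratinocyte markers were all at 0.

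All 50 genes passed the filter of more than 5 retained cells, as did 11264 genes in all. In each tumor log2(TPM + 1) was averaged over retained cells, and this average is called the level of a gene throughout. The level over all retained cells was highest for Tubb4b (6.50), Cks1b and Anp32e (5.95 and 6.00), Cdk1 (5.06), Hmgb2 (5.05), and Birc5 (4.82). It was lowest for Cenpf (0.50), Ttk (0.78), and Cenpe (0.78), which encode a large kinetochore protein, a checkpoint kinase, and a kinetochore motor. The percentage of cells with TPM above 0 ran from 15.8% for Cdca2 (95% Wilson interval 12.9% to 19.2%) to 86.6% for Tubb4b (83.3% to 89.3%), and 19 of the 50 genes were detected in more than 50% of cells. These intervals cover counting error only. The genes differed from each other in level by more than they differed between tumors, as the plot of levels by tumor shows.

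**Figure D2:**
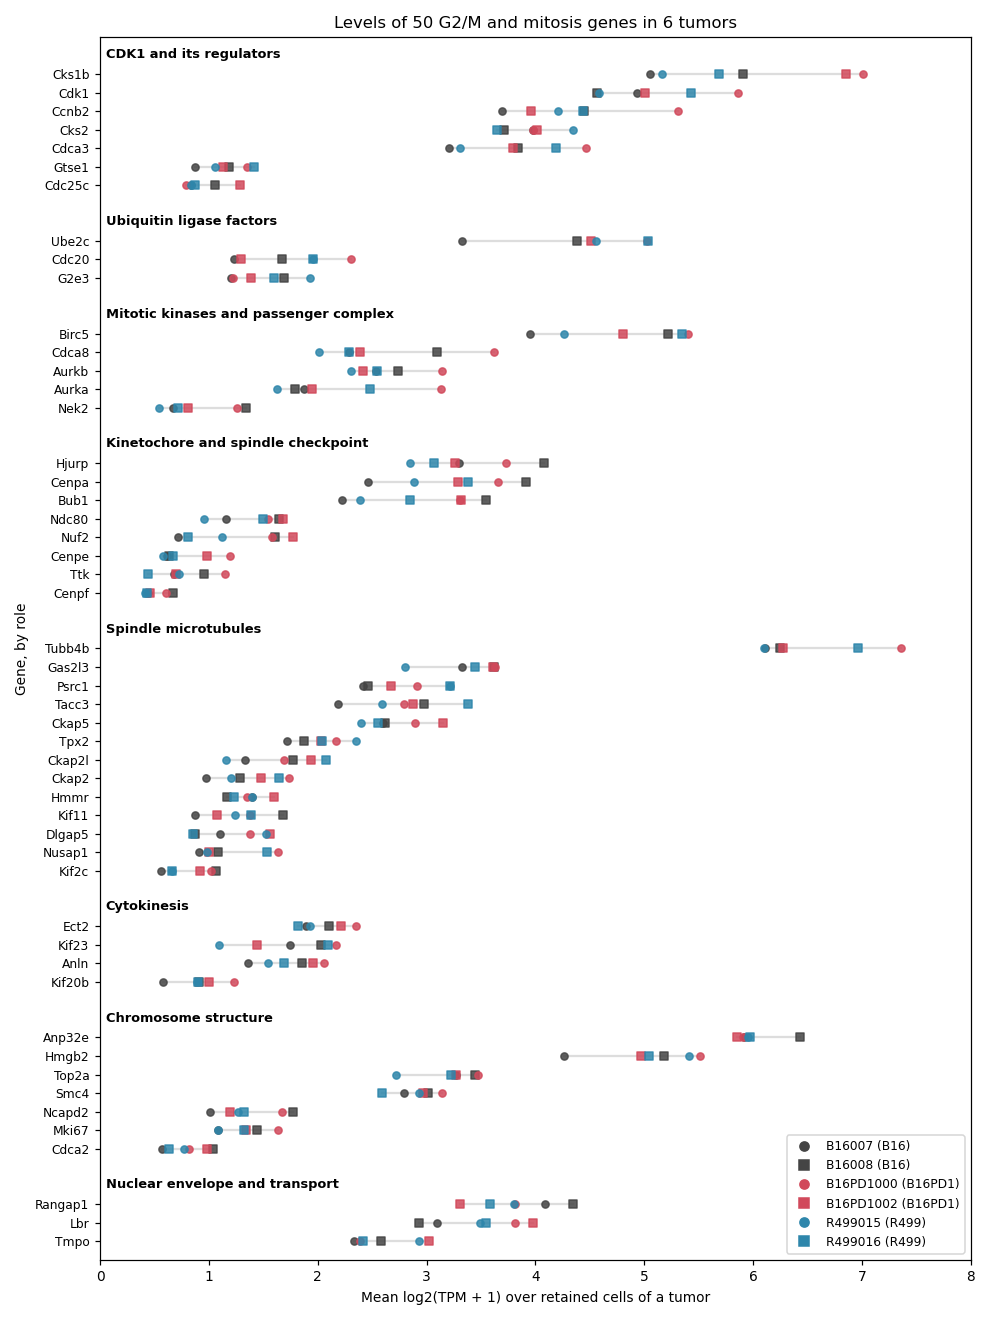
Mean log2(TPM + 1) over retained cells (x axis) of 50 G2/M genes grouped by role (y axis) in 6 tumors, with color for the condition, a circle or square for each tumor, and a line from the lowest to the highest tumor. Levels run from 0.42 for Cenpf in R499015 to 7.36 for Tubb4b in B16PD1000, and the 2 tumors of a condition are often as far apart as the conditions.

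Among the 7 genes for CDK1 and its regulators, Cks1b, whose product is a small CDK-binding subunit (chr3:89415472-89418383 on GRCm38, minus strand), differed most between conditions. Its level was 5.06 in B16007 and 5.91 in B16008, 7.01 in B16PD1000 and 6.86 in B16PD1002, and 5.17 in R499015 and 5.68 in R499016. Both B16PD1 tumors were above all the others. Cdk1, the mitotic kinase itself, had levels of 4.93 and 4.56 in B16, 5.86 and 5.01 after anti-PD1, and 4.59 and 5.43 in R499. Both B16PD1 tumors were above both B16 tumors, although B16PD1002 was only just above B16007, and R499016 lay between the B16PD1 tumors. Ccnb2, which encodes cyclin B2, had levels of 3.70 and 4.45 in B16, 5.31 and 3.96 after anti-PD1, and 4.21 and 4.44 in R499. Here only B16PD1000 stood above the rest, and the conditions overlapped. Cdca3, which encodes a factor that triggers mitotic entry, had levels of 3.21 and 3.84 in B16, 4.46 and 3.79 after anti-PD1, and 3.30 and 4.19 in R499, which also overlapped.

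Of the 3 ubiquitin ligase factors, Ube2c (chr2:164769898-164778822, plus strand) encodes the ubiquitin-conjugating enzyme of the anaphase-promoting complex and Cdc20 its activator. The levels of Ube2c were 3.33 and 4.38 in B16, 5.02 and 4.51 after anti-PD1, and 4.56 and 5.03 in R499, so that all 4 tumors of the other conditions were above both B16 tumors. Cdc20 was at 1.23 and 1.67 in B16, 2.31 and 1.29 after anti-PD1, and 1.96 and 1.96 in R499. G2e3, a ligase named for its expression in G2, was at 1.20 and 1.69 in B16, 1.22 and 1.39 after anti-PD1, and 1.92 and 1.60 in R499. These 2 genes overlapped between B16 and B16PD1, unlike Ube2c.

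The mitotic kinases and the chromosomal passenger complex, which corrects attachments at the kinetochore, gave 5 genes. Birc5, which encodes the passenger protein survivin, had levels of 3.95 and 5.22 in B16, 5.40 and 4.81 after anti-PD1, and 4.26 and 5.35 in R499. B16007 was the lowest tumor and B16008 among the highest, and all conditions overlapped. Cdca8, which encodes borealin of the same complex, was at 2.28 and 3.09 in B16, 3.62 and 2.39 after anti-PD1, and 2.01 and 2.28 in R499. Aurkb, its kinase, was at 2.54 and 2.74 in B16, 3.14 and 2.42 after anti-PD1, and 2.31 and 2.54 in R499. Aurka, the kinase of the spindle poles, was at 1.87 and 1.79 in B16, 3.13 and 1.95 after anti-PD1, and 1.63 and 2.48 in R499. B16PD1000 was the highest tumor for all 4 of these genes, and the other B16PD1 tumor was near the B16 tumors for Aurka.

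Of the 8 kinetochore and spindle checkpoint genes, the most abundant were Hjurp, Cenpa, and Bub1. Hjurp, the chaperone that deposits the centromeric histone, was at 3.30 and 4.08 in B16, 3.73 and 3.26 after anti-PD1, and 2.85 and 3.07 in R499, with both R499 tumors below the other 4. Cenpa, the centromeric histone itself, was at 2.46 and 3.91 in B16, 3.66 and 3.29 after anti-PD1, and 2.89 and 3.38 in R499. Bub1, a checkpoint kinase, was at 2.22 and 3.54 in B16, 3.31 and 3.31 after anti-PD1, and 2.39 and 2.85 in R499. For Cenpa and Bub1 the B16 tumors held both the lowest and the highest value. Nuf2, a part of the NDC80 complex that binds microtubules, was at 0.72 and 1.61 in B16, 1.57 and 1.77 after anti-PD1, and 1.12 and 0.81 in R499. Cenpe was at 0.61 and 0.64 in B16, 1.20 and 0.98 after anti-PD1, and 0.58 and 0.67 in R499, so both B16PD1 tumors were above the other 4 while the B16 and R499 tumors overlapped.

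The 13 spindle microtubule genes were led by Tubb4b, a beta tubulin, with levels of 6.11 and 6.24 in B16, 7.36 and 6.27 after anti-PD1, and 6.10 and 6.96 in R499. As for Cdk1, the lower B16PD1 tumor was only just above the B16 tumors. Gas2l3, which encodes a linker of actin and microtubules, was at 3.32 and 3.62 in B16, 3.63 and 3.61 after anti-PD1, and 2.80 and 3.45 in R499. Psrc1, which encodes a spindle protein that binds microtubules (chr3:108383839-108388231, plus strand), was at 2.42 and 2.46 in B16, 2.91 and 2.67 after anti-PD1, and 3.22 and 3.22 in R499. The levels of Psrc1 did not overlap between any pair of conditions, with B16 lowest and R499 highest. Tpx2, which encodes an activator of Aurora A, was at 1.72 and 1.87 in B16, 2.17 and 2.03 after anti-PD1, and 2.35 and 2.04 in R499, with both B16 tumors lowest. Ckap2l was at 1.33 and 1.77 in B16, 1.69 and 1.94 after anti-PD1, and 1.15 and 2.07 in R499, with R499 spanning the other 4 tumors.

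Of the 4 cytokinesis genes, Ect2 encodes the exchange factor that activates RhoA at the cleavage furrow, Kif23 the motor of centralspindlin, and Anln the scaffold anillin. Ect2 was at 1.89 and 2.10 in B16, 2.35 and 2.21 after anti-PD1, and 1.93 and 1.81 in R499. Anln was at 1.35 and 1.85 in B16, 2.05 and 1.96 after anti-PD1, and 1.54 and 1.69 in R499. For these 2 genes both B16PD1 tumors were above the other 4. Kif23 was at 1.74 and 2.03 in B16, 2.17 and 1.44 after anti-PD1, and 1.09 and 2.10 in R499, and it overlapped between all conditions.

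The 7 genes of chromosome structure included 3 of high level. Anp32e, a chaperone of the histone variant H2A.Z, was at 5.91 and 6.43 in B16, 5.90 and 5.85 after anti-PD1, and 5.95 and 5.97 in R499. Hmgb2, a DNA-bending protein, was at 4.26 and 5.18 in B16, 5.51 and 4.97 after anti-PD1, and 5.41 and 5.04 in R499, where B16007 was the lowest tumor. Top2a, which encodes the topoisomerase that untangles chromosomes, was at 3.27 and 3.45 in B16, 3.47 and 3.27 after anti-PD1, and 2.72 and 3.22 in R499. Outside B16008, the tumors lay close together for Anp32e. Ncapd2, a subunit of condensin, was at 1.01 and 1.77 in B16, 1.67 and 1.20 after anti-PD1, and 1.27 and 1.32 in R499, so both extremes were B16 tumors. Mki67, which encodes the proliferation antigen Ki-67, is named here although the rule for named genes did not choose it. Its levels of 1.09 and 1.45 in B16, 1.63 and 1.34 after anti-PD1, and 1.09 and 1.32 in R499 overlapped between B16 and both other conditions.

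The last 3 genes act at the nuclear envelope and in transport. Lbr, the lamin B receptor (chr1:181815335-181843046, minus strand), was at 3.09 and 2.93 in B16, 3.81 and 3.98 after anti-PD1, and 3.49 and 3.54 in R499, and the 3 conditions did not overlap. Rangap1, which encodes the GTPase activator of Ran, went the other way, with 4.09 and 4.35 in B16, 3.81 and 3.31 after anti-PD1, and 3.80 and 3.58 in R499. Both B16 tumors were above the other 4. Tmpo, which encodes lamina-associated polypeptide 2, was at 2.33 and 2.58 in B16, 2.39 and 3.02 after anti-PD1, and 2.93 and 2.42 in R499, with overlap throughout.

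To ask which G2/M genes were higher after anti-PD1, B16PD1 was compared with B16 by limma on the levels of all 6 tumors, two-sided, with Benjamini-Hochberg adjustment over 11264 genes. The adjusted p was below 0.05 for 0 of the 50 G2/M genes and for 0% of all genes, and the lowest adjusted p of a G2/M gene was 0.989. The differences were nonetheless mostly in 1 direction: 43 of the 50 were positive, compared with 53.0% of all genes, and their median was 0.27, compared with 0.012 over all genes. At an unadjusted p under 0.05, 4 were higher and 0 lower, compared with 3.02% and 1.67% of all genes. In order of p these 4 were Cks1b (difference 1.45 ± 0.36 SE), Lbr (0.89 ± 0.32), Cenpe (0.46 ± 0.19), and Ube2c (0.91 ± 0.39), each with an adjusted p = 0.989 by limma. Next were Rangap1 (-0.66 ± 0.34) and Aurka (0.71 ± 0.39), with the same adjusted p. Both B16PD1 tumors were above both B16 tumors for 16 genes, and both below for Anp32e and Rangap1, compared with 17.9% and 15.4% of all genes. By role, the positive differences were 7 of 7 for CDK1 and its regulators, 2 of 3 ubiquitin ligase factors, 5 of 5 mitotic kinases and passenger genes, 6 of 8 kinetochore and checkpoint genes, 12 of 13 spindle genes, 3 of 4 cytokinesis genes, 6 of 7 genes of chromosome structure, and 2 of 3 of the nuclear envelope. The 16 included 6 of the 13 spindle genes, 3 of the 7 genes for CDK1 and its regulators, and 3 of the 4 cytokinesis genes. The log2 of the mean TPM of a tumor was also used in place of the level. There 33 differences were positive, compared with 42.3% of all genes, with a median of 0.18, compared with -0.077. Without overlap 10 genes were higher and 5 lower, compared with 12.3% and 21.1% of all genes. Of the TPM of a cell, the 50 genes held a mean of 0.24% and 0.35% in the B16 tumors. In the B16PD1 tumors it was 0.33% and 0.31%, both below B16008.

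In the same contrast 7 of the 8 melanocyte markers had a negative difference, with a median of -0.21, among them Tyrp1 (-0.54 ± 0.18 SE) and Mitf (-0.73 ± 0.31), both with an adjusted p = 0.989 by limma. The summed level of these markers ran from 72.8 to 73.6 in the B16 tumors and from 70.4 to 72.1 in the B16PD1 tumors, and its part in the differences of the G2/M genes was not tested.

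The values of B16PD1 minus B16 depended on single tumors. Without B16007 the median difference of the G2/M genes was 0.052 and 30 of 50 were positive, without B16008 they were 0.41 and 48, and without B16PD1000 they were 0.17 and 34. B16008 was above B16007, the other tumor of its condition, for 44 of the 50 genes, by a median of 0.32, while only 40.1% of all genes were higher in it. In B16PD1 the second tumor, B16PD1002, was above B16PD1000 for 14 genes, with a median of -0.22, and in R499 the second tumor, R499016, was above R499015 for 35, with a median of 0.16. B16007 held the lowest value of the 6 tumors for 25 genes and B16PD1000 the highest for 23. The difference between the conditions was thus smaller in its median than that between the B16 tumors, as the histograms of differences show.

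**Figure D3:**
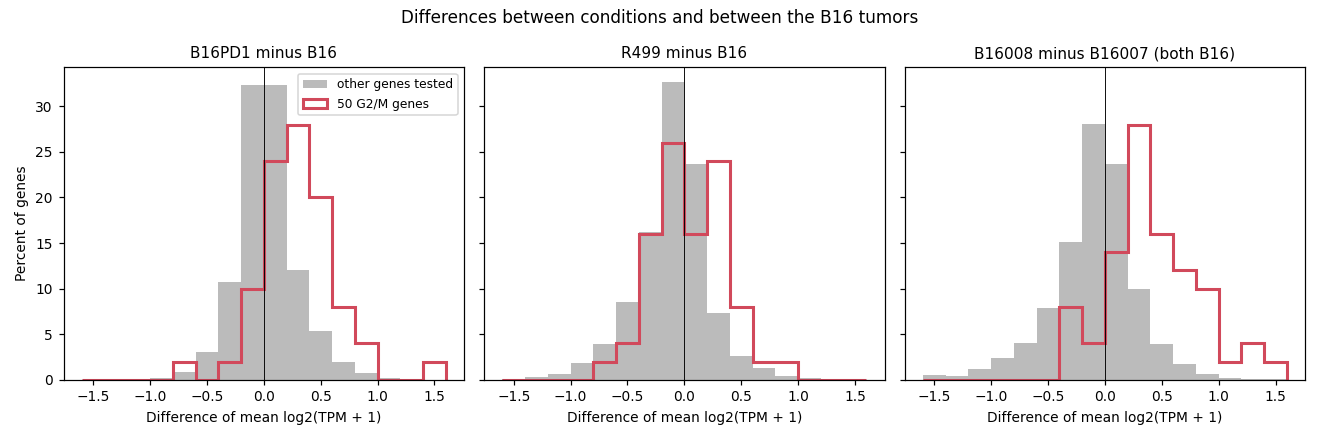
Percent of genes (y axis) by difference of mean log2(TPM + 1) (x axis, bins of 0.2 within ±1.6) for B16PD1 minus B16, R499 minus B16, and B16008 minus B16007, with the 50 G2/M genes as a red outline and the other genes tested in gray. The red outline lies to the right of the gray in the first panel (median 0.27) and again between the 2 tumors of the same condition (median 0.32).

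R499 was compared with B16 in the same fit, to ask how the resistant line differs from its parent. The adjusted p was below 0.05 for 0 of the 50 genes and for 0.0621% of all genes. Of the differences, 26 were positive, compared with 35.8% of all genes, and the median was 0.0064, compared with -0.073 over all genes. At an unadjusted p under 0.05, 2 genes were higher, Psrc1 (0.78 ± 0.31 SE, adjusted p = 0.392) and Ube2c (0.94 ± 0.39, adjusted p = 0.405), and 0 lower, compared with 2.42% and 8.12% of all genes by limma. Hjurp was next (-0.73 ± 0.36, adjusted p = 0.483 by limma). Both R499 tumors were above both B16 tumors for Ube2c, Psrc1, Lbr, Cdc20, and Tpx2, and below for Hjurp, Cdca8, Rangap1, Top2a, Ckap5, and Cenpf, compared with 11.6% and 30.1% of all genes. When the mean of each cell over all genes tested was subtracted, which moved the median of all genes by 0.10, these counts were 8 and 2, compared with 24.0% and 17.8% of all genes. In that setting 32 differences were positive, compared with 55.1% of all genes. The median of the G2/M genes was -0.21 without B16007 and 0.22 without B16008, and -0.081 without R499016 and 0.070 without R499015.

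R499 was then compared with B16PD1, which shares the B16PD1 tumors with the first contrast. The adjusted p was below 0.05 for 0 of the 50 genes and for 0.071% of all genes. Of the differences, 10 were positive, compared with 32.8% of all genes, and the median was -0.28, compared with -0.089 over all genes. At an unadjusted p under 0.05, 0 were higher and 4 lower, compared with 1.56% and 8.64% of all genes. The 4 were Cks1b (-1.51 ± 0.36 SE, adjusted p = 0.182 by limma), Cenpe (-0.46 ± 0.19, adjusted p = 0.428), Nuf2 (-0.71 ± 0.30, adjusted p = 0.455), and Cdca8 (-0.86 ± 0.40, adjusted p = 0.481). Both R499 tumors were above both B16PD1 tumors for G2e3, Psrc1, and Anp32e, and below for 20 genes, compared with 10.2% and 31.3% of all genes. The 20 included 6 of the 8 kinetochore and checkpoint genes, of which none had a positive difference. With each cell's mean subtracted, which moved the median of all genes by 0.14, the counts were 4 and 12, compared with 27.7% and 16.5% of all genes. In that setting 15 differences were positive, with a median of -0.15, compared with 57.2% and 0.046 over all genes. Without B16PD1000 the median was -0.11 and 20 differences were positive, and without R499015 they were -0.17 and 16. The mean number of genes detected in a cell was 3332 and 3456 in the R499 tumors and 3787 and 3745 in the B16PD1 tumors, and with cells weighted to the same genes detected, as described below, the median was -0.094 and 17 differences were positive, compared with -0.0069 and 48.6% over all genes. The summed level of the 16 immune markers was 0.95 and 1.38 in the B16 tumors, between 1.12 and 1.64 in B16PD1, and between 0.68 and 0.83 in R499, and its part in these differences was not tested.

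The level of a gene combines the percentage of cells with a transcript and the amount in those cells, and both were tabulated. The percentage of cells with TPM above 0, averaged over the 50 genes, was 39.3% in B16007 and 43.6% in B16008, 49.3% in B16PD1000 and 44.6% in B16PD1002, and 40.0% in R499015 and 44.0% in R499016. B16PD1 had the higher percentage for 44 of 50 genes, with a median difference of 6.27 percentage points, compared with 60.8% and 0.869 points over all genes. Among the cells with TPM above 0, the level was higher in B16PD1 for 21 of 50 genes, with a median difference of -0.058, compared with 32.1% and -0.15 over the 10266 genes detected in every tumor. The level in these cells depends on which cells were detected, so the parts cannot be told apart. Cks1b was detected in 68.1% and 70.9% of cells of the B16 tumors, 86.0% and 83.0% of the B16PD1 tumors, and 66.7% and 73.3% of the R499 tumors. Cenpe was detected in 19.8% and 19.8%, 34.9% and 28.4%, and 17.3% and 22.7%, and Lbr in 59.3% and 53.5%, 69.8% and 71.6%, and 59.3% and 62.7%. Nuf2 was detected in 15.4% and 31.4%, 31.4% and 33.0%, and 21.0% and 14.7%.

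The number of the 50 genes detected in a cell had a median of 21, with a range of 1 to 50. The medians of the B16 tumors were 18 and 20, those of the B16PD1 tumors 24 and 21, and those of the R499 tumors 20 and 23. The number rose with the genes detected in the cell, with a Pearson correlation of 0.62 over the 507 cells and from 0.58 to 0.70 within a tumor, and these 2 counts share the library of the cell. When cells were divided into 5 equal bins of genes detected, the mean number of G2/M genes in the third bin was 19.1 in B16, 24.0 in B16PD1, and 24.7 in R499, and in the fourth it was 23.6, 27.3, and 27.6. In the first bin it was 11.6, 11.9, and 12.1, in the second it ran from 17.3 to 18.4, and in the last from 28.6 to 31.2. These means pool the cells of both tumors of a condition (41, 37, and 23 cells in the third bin). They were not taken per tumor, so they may reflect a single tumor. With the cells of each tumor weighted to the same bins, which was chosen after seeing the data, 39 of 50 differences of B16PD1 minus B16 were positive, with a median of 0.18, compared with -0.027 over all genes, and 6 genes were higher and 3 lower in both tumors, compared with 12.9% and 20.1% of all genes. The part of genes detected in the difference was not tested further.

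**Figure D4:**
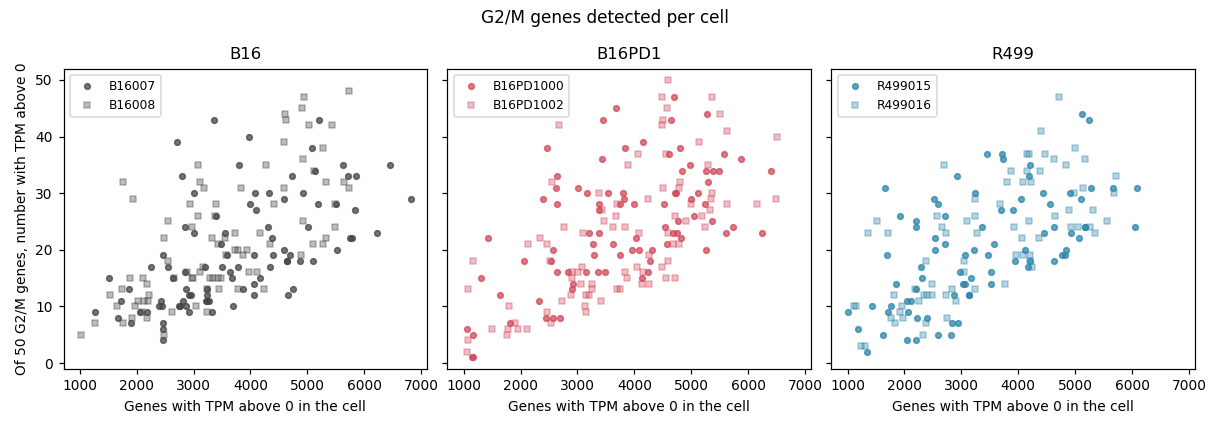
Number of the 50 G2/M genes with TPM above 0 (y axis) against all genes with TPM above 0 (x axis) in each retained cell (points), 1 panel per condition and 1 marker per tumor. In each condition the cells run from fewer than 10 to more than 40 G2/M genes, and the number is higher in cells with more genes detected.

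The G2/M genes also varied together from cell to cell. The mean Pearson correlation over pairs of the 50 genes, computed over retained cells after the mean of each tumor was removed, was 0.19, compared with 0.043 over pairs of all genes tested. With the number of genes detected also removed it was 0.16, compared with 0.00080. The genes tested include many found in few cells, whereas each of the 50 was in at least 15.8% of cells. The 2 sets were not matched for this. Other lists varied together as well, with means of 0.18 within the 8 melanocyte markers, 0.17 within the 43 S phase genes, and 0.13 within 74 other mitosis genes. With genes detected removed these were 0.16, 0.15, and 0.11. Of 1225 pairs of G2/M genes, 1224 were positive and 113 exceeded 0.3, and within single tumors their mean ran from 0.16 in B16007 to 0.25 in B16PD1002. The strongest pairs were Ccnb2 with Cdca3 (0.43), Ccnb2 with Ube2c (0.42), Ccnb2 with Birc5 (0.41), Ccnb2 with Cenpa (0.41), and Cdca8 with Hmgb2 (0.40). Of 507 cells, 240 had both Ccnb2 and Cdca3, 120 had neither, 89 had only Ccnb2, and 58 only Cdca3. By role the mean correlation was highest among the cytokinesis genes (0.28) and lowest among the 3 genes of the nuclear envelope (0.13). These are correlations over cells, which share libraries and depth, and are given as a description.

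Single genes differed in how far they followed the rest. The mean correlation with the other 49 was highest for Birc5 (0.27), Kif23 (0.26), Ckap2l (0.25), Tpx2 (0.25), and Cdca3 (0.25). It was lowest for Gas2l3 (0.070), G2e3 (0.095), Ncapd2 (0.11), Psrc1 (0.12), and Anp32e (0.13). Gas2l3 was detected in 65.7% of cells and Anp32e in 85.6%, and Kif23 in 30.8%. Over pairs of a G2/M gene and an S phase gene the mean correlation was 0.12, and over pairs with a melanocyte marker it was 0.022. The correlation with the mean of the S phase genes was highest for Cdk1 (0.47), Hmgb2 (0.47), Top2a (0.46), and Aurkb (0.45), and lowest for Gas2l3 (0.081) and Ckap5 (0.11).

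**Figure D5:**
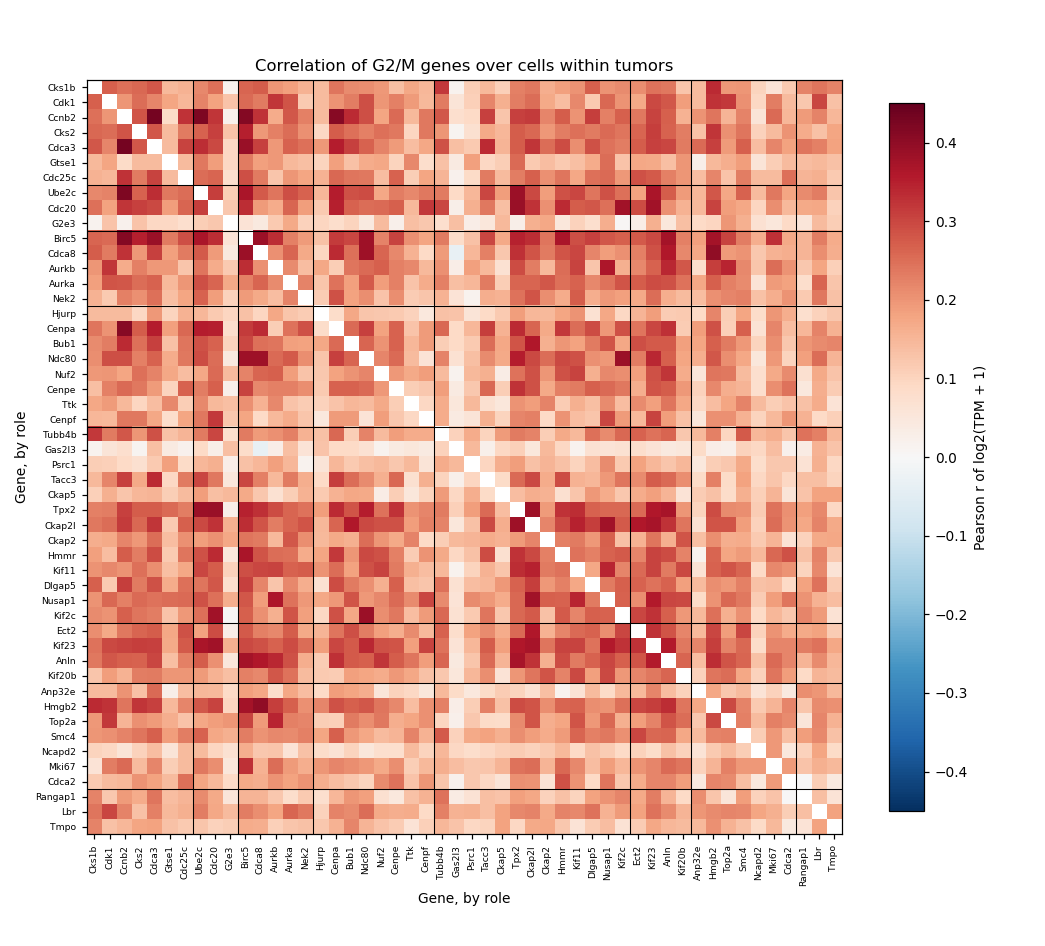
Pearson correlation over 507 retained cells of log2(TPM + 1), with the mean of each tumor removed, for each pair of the 50 G2/M genes (both axes, ordered by role, with lines between roles and a blank diagonal). Nearly all pairs are positive, the strongest are those of Ccnb2 with Cdca3, Ube2c, Birc5, and Cenpa, and the rows of Gas2l3 and G2e3 are pale.

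Outside the 50 genes, the 10 whose values correlated best with the mean of the 50 over the 507 cells were Ccnb1 (0.56), Pbk (0.55), Ccna2 (0.54), Racgap1 (0.54), Spc25 (0.54), Pclaf (0.53), Prr11 (0.52), Plk1 (0.50), Rrm2 (0.50), and Mad2l1 (0.49). Ccnb1 and Ccna2 encode cyclins, Plk1 a mitotic kinase, Spc25 and Mad2l1 parts of the kinetochore and the checkpoint, and Racgap1 the partner of Kif23 in centralspindlin. Of these 10, 7 were in the list of 75 other mitosis genes, and Rrm2, a subunit of ribonucleotide reductase, was in the S phase list.

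The other mitosis genes and the S phase genes were compared with the 50 in the same fit. Of the 75 other mitosis genes, 74 were tested, and their most abundant were Bub3, Jpt1, and Kpna2, with levels over all cells of 7.04, 6.80, and 6.69. In B16PD1 minus B16, 55 of 74 differences were positive, with a median of 0.16, and 6 were higher and 0 lower at an unadjusted p under 0.05. The smallest p values were those of Spc24 (0.99 ± 0.34 SE), of the NDC80 complex, Kifc1 (0.41 ± 0.16), a spindle motor, and Kntc1 (0.32 ± 0.13), a checkpoint protein, all with an adjusted p of 0.989 by limma. The S phase list held 43 genes, with Pcna (6.16), Rrm1 (5.61), and Rrm2 (5.51) at the highest levels. Of their differences 27 were positive, with a median of 0.093, and 4 were higher and 0 lower at an unadjusted p under 0.05. Of all genes, 3.02% were higher and 1.67% lower at this p. In R499 minus B16PD1 the S phase genes were lower at this p in 16 of 43 and the other mitosis genes in 10 of 74, compared with 4 of the 50 G2/M genes and the 8.64% of all genes. In R499 minus B16 the numbers lower were 10 of 43, 4 of 74, and 0 of 50, compared with 8.12% of all genes. None of these genes had an adjusted p below 0.05 in any contrast, and the differences between the lists were not tested.

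Some values have limits set by near-identical sequences. Transcripts of Cks2, Hmgb2, Tubb4b, Mki67, and Ndc80 match processed pseudogenes at 95% identity or more over at least 200 bases. For Cks2 the 1 of 3 copies with deposited values had a mean of 61.9 TPM, compared with 174 for Cks2 itself, and for Tubb4b the 2 copies had 2.92 TPM in sum, compared with 227. Gas2l3 shares a stretch with 26 other genes. Lbr, Tacc3, Nek2, and Tmpo share such sequence with overlapping genes, and strand was not stated, so their values may hold reads of those genes.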

How the data were processed

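Single-cell RNA-seq of 6 tumors was analysed. The authors aligned reads with STAR to mm10 and quantified them with RSEM (versions not given in the sources used here), and deposited TPM, which has the same sum in every cell. GATK is also named in the submitters' processing notes, and variants were not analysed here. Cells with more than 1000 genes detected and under 10% mitochondrial TPM, and genes in more than 5 such cells, were retained. The study's minimum on mapped reads could not be applied to TPM, and doublets were not called. Column names give the condition of a tumor but not its replicate number. The 2 tumor names of a condition were taken as its 2 mice, which no label states. With limma 3.58.1 (R 4.3.3), eBayes with a trend was fitted to the mean log2(TPM + 1) of 6 tumors for 3 contrasts. The fit was run on simulated data with changes larger than the median differences of the G2/M genes. Recovery of differences of that size was not tested. The p-values rest on the spread between the 2 tumors of a condition, pooled over the 3 conditions and drawn toward a trend over all genes tested. Other steps used Python 3.11.15, with pandas 2.3.3, numpy 2.4.6, matplotlib 3.10.9, and scipy 1.17.1, and near-identical transcripts of GENCODE vM21, which also gives positions, were found with BLAST 2.17.0.

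The genes, the lists, and the rule for named genes were chosen with earlier results of these data known. The rule names the 6 highest and 3 lowest genes by level, the smallest p-values of each contrast (6, 3, and 3), the 5 highest and 5 lowest by mean correlation, the 3 most abundant of each role and list, the 10 most alike genes, the 5 strongest pairs, and the 3 most abundant promoters with both motifs. The proteins of Cks1b and Cks2, also in the rule, were not used here. Genes named outside it are Mki67, Mitf and other markers, Cdca8 in the third contrast, the promoter of Ccnb2, those listed as not overlapping, and those ranked by correlation with S phase, which were chosen after their values were seen. Tried as alternatives were pseudocounts of 0.1 and 10, the log2 of the mean TPM, other filters on genes and cells, each cell's mean subtracted, genes detected as a covariate or as weights, limma without a trend, and leaving out each tumor.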

Additional observations from a re-analysis of the deposited data

How the results depend on the processing

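No paired analysis was possible because the columns carry no replicate numbers and no pairing of mice between conditions is described. The tumors came from 6 separate mice, so replicate numbers alone would not have made pairs. No G2/M gene was called under any alternative run. Over all results and alternatives, 417 values stayed within 1.5 times for counts, within the spread between tumors for medians and means, or on the same side of 0 and of the threshold for single genes, and 56 did not. Some of the 417 were fixed in advance. Filters on genes and settings of the fit cannot alter non-overlap of the G2/M genes, and a tumor outside a contrast cannot alter its differences. A fall from 43 to 30 positive differences, without B16007, also counted as staying. The number that stayed therefore does not measure how firm the results are. The median of R499 minus B16 changed sign in some settings. For B16PD1 minus B16, the number of G2/M genes not overlapping (18) was 9 with cells weighted to the same genes detected. It was 28 to 44 with 1 tumor of the contrast left out. Leaving out a tumor of the contrast sets 1 tumor against 2, so non-overlap is then more frequent over all genes too. The 44 were found without B16008, where 29.5% of all genes were higher and 36.2% lower, compared with 17.9% and 15.4% with all tumors. With weighted cells these shares were 12.9% and 20.1%. The median of the G2/M genes (0.27) was 0.45 and 0.10 with pseudocounts of 0.1 and 10 and 0.052 to 0.41 with 1 tumor left out. Of all genes, 0 to 2 were called with 1 tumor left out. For R499 minus B16, the median (0.0064) was -0.21 with genes detected as a covariate and -0.21 to 0.22 with 1 tumor left out. With 1 tumor of the contrast left out, the number not overlapping (11) was 25 to 35 and the number positive (26) between 17 and 36. For R499 minus B16PD1, the median (-0.28) was -0.11 with a pseudocount of 10, -0.098 with the log2 of the mean TPM, -0.094 with weighted cells, -0.50 with the covariate, and -0.38 to -0.11 with 1 tumor left out. The number positive (10) was 18 with the log2 of the mean TPM, 17 with weighted cells, 6 with the covariate, and 8 to 20 with 1 tumor left out. The number not overlapping (23) was unchanged without a B16 tumor, which is outside the contrast, and reached at most 41 without another tumor. The 41 were found without B16PD1002, where 21.1% of all genes were higher and 49.0% lower without overlap, compared with 10.2% and 31.3% with all tumors.

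Of all genes tested, 7 were called in R499 minus B16 and 8 in R499 minus B16PD1. These counts were 11 and 13 with a pseudocount of 0.1, 3 and 3 with 10, 20 and 14 with genes in at least 10% of cells, 22 and 16 with no filter on cells, 28 and 22 with each cell's mean subtracted, and 13 and 13 with weighted cells. They were 0 and 0 with the log2 of the mean TPM, with no filter on genes, without a trend, and with the covariate, 21 for R499 minus B16 with the stricter cell filter, and 0 to 10 and 3 to 8 with 1 tumor left out. The mean percentage of cells with a transcript (43.4%) was 37.9% at TPM above 10. The causes were not tested. TPM gives no read depth, so a value of 0 in a cell is not shown to be absence.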
